A study of Homo sapiens with 42 samples.

Results

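Expression of 10 well-known hypoxia-induced genes outside energy metabolism was followed in the 786-O line: *ADM*, *STC1*, *EDN1*, *EFNA3*, *NDRG1*, *ANKRD37*, *INSIG2*, *ERO1A*, *RORA* and *BHLHE40*. The genes were taken by symbol, as known hypoxia-induced genes, and all 10 were found among the 60609 genes counted in each library. The list was chosen with earlier results of these data known, so counts of called genes among the 10 are descriptions. 786-O is a clear cell renal cell carcinoma (ccRCC) line that lacks VHL, so that HIF-2α is stable in normal oxygen, and it lacks functional HIF-1α. Poly-A RNA-seq was performed in 2 batches on 42 libraries, 3 biological replicates for each of 14 groups, to compare the 2 HIF-α isoforms, their mutants and chimeras that exchange the intrinsically disordered region (IDR).

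All cells were 786-O cells grown in the same base medium, with no hypoxia treatment named in the labels. The stable lines carry a puromycin resistance gene and were kept under puromycin, which is not stated for WT cells or the KIN clones, so that transgene and selection cannot be told apart in comparisons with WT. Every group kept its own HIF-2α gene, so that no group is without HIF activity. Batch 1 held wild-type (WT) cells, the HIF-1β KIN clone A21 and the HIF-2α KIN clone A31, each a single clone with a homozygous V5-Halo knock-in at the N-terminus of the named protein, and 6 stable lines. In the stable lines the L30 promoter drove a V5-HaloTag fusion of HIF-1α, HIF-1α R30E, HIF-1αDM (R170A/V191D), HIF-2α, HIF-2α R27E or HIF-2αDM (R171A/V192D). R30E and R27E change the DNA-binding domain, and DM stands for the dimerization mutants, which no longer pair with HIF-1β. Batch 2 held WT cells and L30-driven lines with HIF-1α, HIF-2α and the chimeras HIF-2α/1α (residues 1 to 365 of HIF-2α joined to 364 to 826 of HIF-1α) and HIF-1α/2α (residues 1 to 363 of HIF-1α joined to 366 to 870 of HIF-2α). The first part of each chimera is the structured part, with the DNA-binding and dimerization domains, and the second is the IDR, with the activation domains. RNA was extracted with a column kit in batch 1 and with TRIzol in batch 2, and libraries were made with different kits, so levels are compared only within a batch.

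HIF-α subunits pair with HIF-1β (the product of *ARNT*) and bind hypoxia response elements, whose core is RCGTG, near genes that help cells and tissues cope with low oxygen. With VHL present, HIF-α is hydroxylated in oxygen and degraded. In ccRCC the loss of VHL can keep such genes active in normal oxygen. Among their products are secreted or surface signals (adrenomedullin, stanniocalcin-1, endothelin-1 and ephrin-A3), proteins of stress, sterol and secretory control (NDRG1, ANKRD37, INSIG2 and ERO1A) and the transcription factors RORα and BHLHE40, which also act in the circadian clock.

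RefSeq promoters (GRCh38.p14, 250 bases before to 50 after a transcript start) were searched for ACGTG and GCGTG, the 2 forms of the core, on both strands. Of all 35116 promoters in the table, 21.4% held ACGTG, 36.5% GCGTG and 48.4% either, and 4.4% held 4 or more matches. Promoters of 5 of the genes are shown, *ADM* and *EDN1* for genes higher with the HIF-2α IDR, *ANKRD37* and *ERO1A* for genes lower with the structured part of HIF-2α, and *BHLHE40* for its number of matches, with each match in capitals (CACGT and CACGC are the same motifs on the other strand). A match is a description of the letters and not a bound site. The stretch CACGTG reads the same on both strands and counted as 1 match on each. *ANKRD37* and *BHLHE40* hold such a stretch, so their matches outnumber their separate sites. *ADM*, at chr11:10304823-10305122 on the plus strand, held 1 match.
ADM: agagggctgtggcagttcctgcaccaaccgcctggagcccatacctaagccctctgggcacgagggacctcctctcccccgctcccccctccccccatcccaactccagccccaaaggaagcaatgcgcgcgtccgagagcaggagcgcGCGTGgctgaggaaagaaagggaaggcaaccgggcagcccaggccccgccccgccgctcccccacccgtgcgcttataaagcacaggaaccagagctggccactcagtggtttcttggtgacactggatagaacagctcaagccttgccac
*EDN1* had 3 annotated windows, with 3, 0 and 1 matches, and the one at the start of the annotated gene, chr6:12290111-12290410 on the plus strand, held 1.
EDN1: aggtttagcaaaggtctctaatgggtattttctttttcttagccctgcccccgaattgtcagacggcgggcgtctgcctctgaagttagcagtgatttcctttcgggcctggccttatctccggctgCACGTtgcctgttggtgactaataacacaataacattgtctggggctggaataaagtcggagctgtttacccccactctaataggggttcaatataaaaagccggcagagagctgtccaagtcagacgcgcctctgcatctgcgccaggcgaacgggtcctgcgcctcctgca
*ANKRD37*, at chr4:185396591-185396890 on the plus strand, held 3 ACGTG matches.
ANKRD37: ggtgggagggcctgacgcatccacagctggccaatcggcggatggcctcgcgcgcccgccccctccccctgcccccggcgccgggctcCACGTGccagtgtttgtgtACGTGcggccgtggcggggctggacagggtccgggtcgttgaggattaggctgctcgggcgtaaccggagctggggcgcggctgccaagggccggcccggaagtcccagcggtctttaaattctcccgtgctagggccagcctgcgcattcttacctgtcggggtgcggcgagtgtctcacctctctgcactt
*ERO1A*, at chr14:52695509-52695808 on the minus strand, held 3 matches.
ERO1A: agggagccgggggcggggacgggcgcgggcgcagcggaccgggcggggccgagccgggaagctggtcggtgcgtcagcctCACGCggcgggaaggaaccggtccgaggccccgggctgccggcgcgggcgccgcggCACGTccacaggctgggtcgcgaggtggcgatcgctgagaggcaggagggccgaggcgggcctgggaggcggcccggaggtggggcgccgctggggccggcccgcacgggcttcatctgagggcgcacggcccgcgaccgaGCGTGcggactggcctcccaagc
*BHLHE40*, at chr3:4979187-4979486 on the plus strand, held 4 ACGTG matches.
BHLHE40: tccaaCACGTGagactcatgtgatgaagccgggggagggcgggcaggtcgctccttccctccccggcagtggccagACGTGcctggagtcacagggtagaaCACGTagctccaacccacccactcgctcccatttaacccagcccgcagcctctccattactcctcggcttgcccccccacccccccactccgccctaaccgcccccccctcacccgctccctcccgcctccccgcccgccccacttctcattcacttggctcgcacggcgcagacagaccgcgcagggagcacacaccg
*EFNA3* (chr1:155078587-155078886, plus strand) held 3 GCGTG matches, the 2 windows of *INSIG2* (chr2:118088221-118088520 and chr2:118088300-118088599, plus strand) held 2 and 3, and the window of *RORA* (chr15:60627481-60627780, minus strand) held none. Promoters of *STC1* and *NDRG1* were not analysed here.

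Libraries held 42377599 to 101186554 counted reads in batch 1 and 76366799 to 109642159 in batch 2. Levels are given as CPM, the read count normalized to the library's total, scaled within the batch. A floor of 3 counts was at most 0.0706 CPM in batch 1 and 0.0399 CPM in batch 2, and it covers counting error only. The renal and cytoskeletal markers *PAX8*, *PAX2*, *KRT8*, *KRT18*, *CDH2* and *VIM* were present, whereas *CD3E* had no reads and *PTPRC*, *PECAM1* and *CDH5* stayed at or under 0.116, 0.0655 and 0.0861 CPM in every library. The leukocyte marker *CD14* and the endothelial markers *KDR* and *TEK* were also listed, and their levels are not given here. Absence of these cell types is therefore not shown for the whole list. Reads from the transgenes count towards their own genes: in batch 2 *HIF1A* was 3.27 ± 0.313 CPM in WT (mean ± SD, n = 3 here and for every mean), 147 ± 5.52 in HIF-1α, 108 ± 0.845 in HIF-2α/1α and 109 ± 6.96 in HIF-1α/2α, and *EPAS1*, which encodes HIF-2α, was 141 ± 9.16 in WT, 232 ± 14.1 in HIF-2α/1α, 475 ± 3.57 in HIF-2α and 574 ± 34.5 in HIF-1α/2α. Each chimera carries only part of either coding sequence, and the cells' own genes add reads. These values therefore do not rank the transgenes by mRNA level. Equal mRNA levels were not shown, and the part of any difference in the results was not tested.

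In batch 2, each of the 4 L30-driven lines raised 3 to 6 of the 10 genes over WT, *STC1* and *NDRG1* in every line. A gene was called when the adjusted p of edgeR's quasi-likelihood test (Benjamini-Hochberg over all genes tested) was at most 0.01 and the change at least 2-fold. HIF-1α raised 5 of the 10 genes (*ADM*, *STC1*, *NDRG1*, *ANKRD37* and *EFNA3*), against 3.9% of all genes tested called higher, and the median log2 change was 0.99 over the 10 genes against 0.03 over all genes tested. HIF-2α/1α raised 3 (*STC1*, *NDRG1* and *EFNA3*) against 2.98% of all genes, with a median of 0.86 over the 10 genes against 0.03 over all genes tested. HIF-2α raised 5 (*ADM*, *STC1*, *EDN1*, *NDRG1* and *ANKRD37*) against 5.45%, with a median of 1.09 over the 10 genes against 0.07 over all genes tested. HIF-1α/2α raised 6 (*ADM*, *STC1*, *EDN1*, *NDRG1*, *ANKRD37* and *EFNA3*) against 5.1%, with a median of 1.45 over the 10 genes against 0.08 over all genes tested. All of these calls were upward. Which genes were called in a line turned on the fold minimum: *ADM* and *ANKRD37* lay just under it in HIF-2α/1α, at 1.91-fold and 1.92-fold, and without it 9 genes, all but *RORA*, passed in both HIF-1α and HIF-2α/1α. All 4 comparisons share the same WT libraries. In HIF-2α, 2 of the 3 HIF subunit genes (*HIF1A*, *EPAS1* and *ARNT*) were also called higher than in WT, against 5.45% of all genes tested. A subunit gene other than *EPAS1* thus rose beside the transgene, and its part in the results was not tested. In bulk samples fewer cells expressing a gene and less RNA per cell cannot be told apart.

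**Figure D1:**
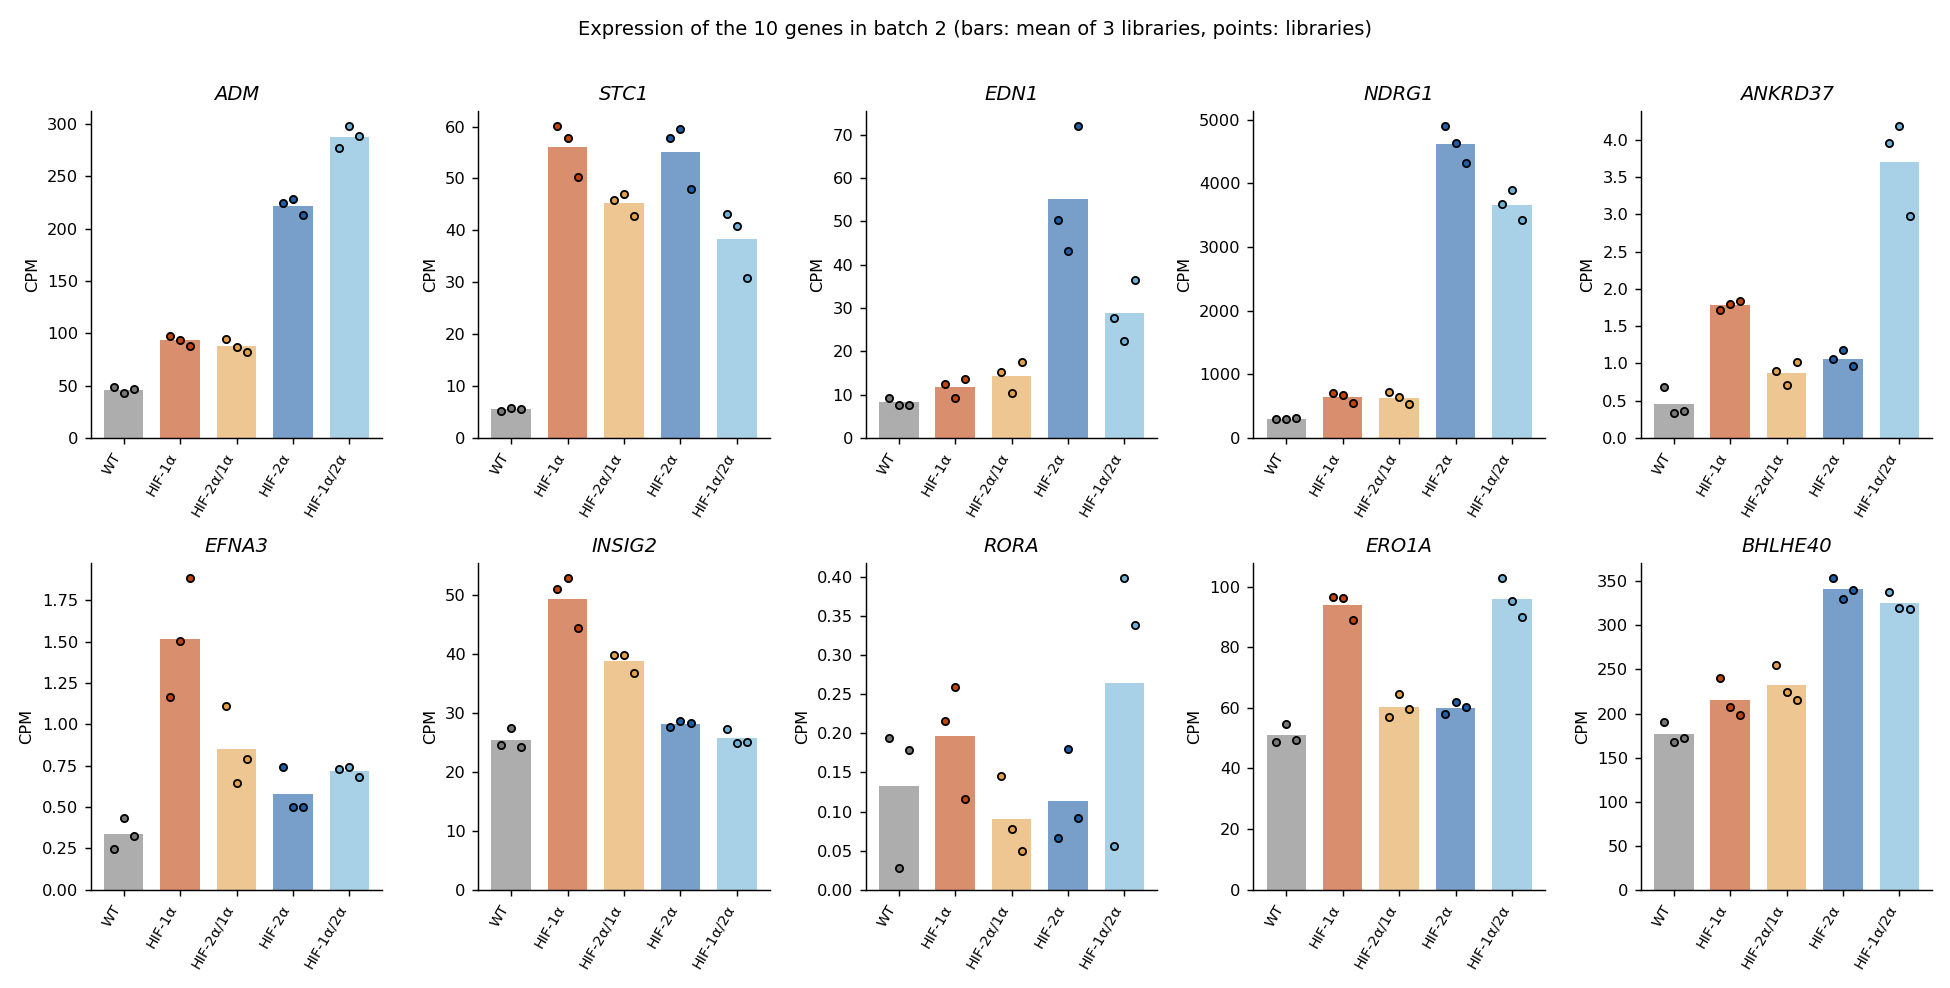
Level of each of the 10 genes in batch 2 in CPM (linear axis from 0, one panel per gene), with bars at the mean of 3 libraries and a point for each library. *ADM*, *NDRG1*, *EDN1* and *BHLHE40* stand highest in HIF-2α and HIF-1α/2α, *INSIG2* and *EFNA3* in HIF-1α, and *ERO1A* and *ANKRD37* in the lines with the structured part of HIF-1α.

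*ADM* encodes adrenomedullin, a secreted peptide that widens blood vessels. Its level was 48.3, 42.8 and 46.9 CPM in the 3 WT libraries, 97.6, 94.0 and 87.7 in HIF-1α and 94.2, 87.2 and 82.5 in HIF-2α/1α. It reached 225, 229 and 213 CPM in HIF-2α and 277, 298 and 288 in HIF-1α/2α. Only HIF-1α and HIF-2α/1α overlapped. *ADM* was 4.82-fold higher than WT in HIF-2α (log2 change 2.27, SE 0.059, edgeR adjusted p = 9.57e-32) and 6.25-fold higher in HIF-1α/2α (log2 change 2.64, SE 0.060, edgeR adjusted p = 3.25e-34). The rise in HIF-1α lay at the fold minimum, 2.02-fold (log2 change 1.02, SE 0.058), and it was called in 4 of 6 fits that each left out 1 library, with log2 changes of 0.98 without HIF-1α replicate 1 and 0.97 without WT replicate 2. The change in HIF-2α/1α, 1.91-fold, was not called.

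*EDN1* encodes the precursor of endothelin-1, a secreted peptide that narrows blood vessels. Its level was 9.30, 7.68 and 7.64 CPM in WT, 12.5, 9.25 and 13.6 in HIF-1α and 15.1, 10.3 and 17.4 in HIF-2α/1α. In HIF-2α it was 50.2, 43.1 and 72.0 CPM and in HIF-1α/2α 27.6, 22.3 and 36.4. Every library of the 2 lines with the HIF-2α IDR was above every library of the other groups, and HIF-1α overlapped both WT and HIF-2α/1α. *EDN1* rose 6.71-fold in HIF-2α (log2 change 2.75, SE 0.15, edgeR adjusted p = 1.43e-19) and 3.51-fold in HIF-1α/2α (log2 change 1.81, SE 0.15, edgeR adjusted p = 8.37e-14). Its replicates spread more than those of *ADM*, with 55.1 ± 15.1 CPM in HIF-2α.

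*STC1* encodes stanniocalcin-1, a secreted glycoprotein tied to calcium and phosphate handling in the kidney. Its level was 5.18, 5.75 and 5.51 CPM in WT, 60.1, 57.9 and 50.3 in HIF-1α and 57.8, 59.5 and 47.9 in HIF-2α. In the chimeras it was 45.9, 47.0 and 42.7 CPM in HIF-2α/1α and 43.1, 40.9 and 30.8 in HIF-1α/2α. HIF-1α and HIF-2α overlapped each other, as did the 2 chimeras, and all 4 lines lay far above WT. The change was 10.2-fold in HIF-1α (log2 change 3.35, SE 0.096, edgeR adjusted p = 1.59e-29), 10-fold in HIF-2α (log2 change 3.33, SE 0.096), 8.24-fold in HIF-2α/1α (log2 change 3.04, SE 0.096) and 6.97-fold in HIF-1α/2α (log2 change 2.80, SE 0.095).

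*EFNA3* encodes ephrin-A3, a surface ligand of Eph receptors. Its counted level was low, at 0.247, 0.433 and 0.325 CPM in WT, 1.16, 1.5 and 1.88 in HIF-1α and 1.11, 0.645 and 0.793 in HIF-2α/1α. HIF-2α held 0.742, 0.503 and 0.498 CPM and HIF-1α/2α 0.731, 0.744 and 0.678. HIF-1α lay above all other groups and WT below them, while the middle 3 groups overlapped. The rise was 4.48-fold in HIF-1α (log2 change 2.16, SE 0.28, edgeR adjusted p = 4.68e-08) and 2.49-fold in HIF-2α/1α (log2 change 1.32, SE 0.29), the latter called in 5 of 6 fits that left out 1 library, with a log2 change of 1.08 without HIF-2α/1α replicate 1. In HIF-1α/2α (log2 change 1.09, SE 0.29) the call was kept in 4 of 6 such fits, and the log2 change was 0.91 without WT replicate 1 and 1.06 without WT replicate 3. In HIF-2α the change of 1.73-fold did not pass (edgeR adjusted p = 0.0358). The later annotation used for gene positions also holds a same-strand readthrough gene of *EFNA4* and *EFNA3*, whose reads cannot be assigned with certainty. Reads on overlapping genes are dropped in the counting, so the counted level of *EFNA3* may lie below its expression.

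*NDRG1*, a stress-responsive gene linked to differentiation and metastasis control, had the largest fold change of the 10 genes in HIF-2α and in HIF-1α/2α. It was at 289, 289 and 312 CPM in WT, 706, 676 and 543 in HIF-1α and 719, 648 and 528 in HIF-2α/1α. In HIF-2α it reached 4895, 4627 and 4322 CPM and in HIF-1α/2α 3680, 3899 and 3416. HIF-1α and HIF-2α/1α overlapped, and all other groups were apart. The rise was 15.5-fold in HIF-2α (log2 change 3.96, SE 0.080, edgeR adjusted p = 6.11e-36) and 12.3-fold in HIF-1α/2α (log2 change 3.63, SE 0.079, edgeR adjusted p = 7.75e-35). With the HIF-1α IDR it was 2.16-fold in HIF-1α (log2 change 1.11, SE 0.072) and 2.13-fold in HIF-2α/1α (log2 change 1.09, SE 0.072), the latter called in 5 of 6 fits with 1 library left out and at a log2 change of 0.99 without HIF-2α/1α replicate 1.

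*ANKRD37*, which encodes an ankyrin-repeat protein, was highest in the lines with the structured part of HIF-1α. Its level was 0.677, 0.334 and 0.358 CPM in WT, 1.72, 1.79 and 1.84 in HIF-1α and 3.96, 4.18 and 2.98 in HIF-1α/2α. In the lines with the structured part of HIF-2α it was 1.05, 1.17 and 0.970 CPM (HIF-2α) and 0.898, 0.712 and 1.02 (HIF-2α/1α). These last 2 lines overlapped each other, and HIF-1α/2α, HIF-1α and WT were each apart. The rise was 8.15-fold in HIF-1α/2α (log2 change 3.03, SE 0.23, edgeR adjusted p = 3.04e-15), 3.93-fold in HIF-1α (log2 change 1.97, SE 0.23) and 2.34-fold in HIF-2α (log2 change 1.23, SE 0.24), while the 1.92-fold change in HIF-2α/1α was not called unless HIF-2α/1α replicate 2 (log2 change 1.08) or WT replicate 1 (1.33) was left out. *UFSP2* lies on the opposite strand and overlaps *ANKRD37*, and reads were counted without strand. *UFSP2* itself, looked up after the values were seen, was at 3.19 ± 0.139 CPM in WT. It was at 4.38 ± 0.483 CPM in HIF-1α, 6.30 ± 0.637 in HIF-1α/2α, 3.74 ± 0.187 in HIF-2α and 3.75 ± 0.274 in HIF-2α/1α. The part of *UFSP2* in the *ANKRD37* values was not tested.

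*INSIG2* and *ERO1A* act in the endoplasmic reticulum, the first by holding back sterol-dependent activation of SREBP factors and the second by supplying oxidizing power for disulfide formation. *INSIG2* was at 24.5, 27.4 and 24.1 CPM in WT, 50.9, 52.8 and 44.3 in HIF-1α and 39.8, 39.8 and 36.7 in HIF-2α/1α. It was at 27.6, 28.5 and 28.3 CPM in HIF-2α and 27.2, 24.9 and 25.0 in HIF-1α/2α. The 2 lines with the HIF-1α IDR were above all others, and HIF-1α/2α overlapped WT. The change in HIF-1α stayed just under the fold minimum at 1.94-fold (log2 change 0.96, SE 0.070, edgeR adjusted p = 2.6e-15), and it was called in 2 of 6 fits that left out 1 library, at 1.03 without HIF-1α replicate 3 and 1.02 without WT replicate 2. For HIF-1α/2α the log2 difference from WT was 0.02 (SE 0.070).

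*ERO1A* divided the lines another way. It was at 48.6, 54.8 and 49.5 CPM in WT, 96.5, 96.3 and 88.9 in HIF-1α and 103, 95.3 and 90.0 in HIF-1α/2α. It was at 58.0, 62.0 and 60.1 CPM in HIF-2α and 57.0, 64.4 and 59.5 in HIF-2α/1α. HIF-1α and HIF-1α/2α overlapped at the top and HIF-2α and HIF-2α/1α overlapped below them, with WT lowest. No line reached a 2-fold change, the values being 1.84-fold in HIF-1α (log2 change 0.88, SE 0.062, edgeR adjusted p = 7.7e-16), 1.88-fold in HIF-1α/2α (log2 change 0.91, SE 0.062) and 1.18-fold in both HIF-2α and HIF-2α/1α. An antisense noncoding gene overlaps *ERO1A*, and without strand its reads cannot be told apart.

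*BHLHE40*, a basic helix-loop-helix repressor, was at 190.3, 168 and 173 CPM in WT, 239.9, 208 and 198 in HIF-1α and 256, 225 and 216 in HIF-2α/1α. It was at 354, 330.1 and 340.5 CPM in HIF-2α and 337, 320.1 and 319 in HIF-1α/2α. The 2 lines with the HIF-2α IDR overlapped each other above the rest. Their changes stayed under the fold minimum, at 1.93-fold in HIF-2α (log2 change 0.95, SE 0.061, edgeR adjusted p = 1.8e-17) and 1.84-fold in HIF-1α/2α (log2 change 0.88, SE 0.061). Without WT replicate 1 the former was called, at a log2 change of 1.00. The antisense gene *BHLHE40-AS1* overlaps it.

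*RORA*, which encodes a nuclear receptor, was hardly expressed. Its counts were 18, 3 and 16 in the WT libraries, 20, 24 and 11 in HIF-1α and 11, 8 and 4 in HIF-2α/1α. They were 6, 14 and 7 in HIF-2α and 6, 30 and 28 in HIF-1α/2α. All groups overlapped, and no difference was detectable at this depth. In batch 1 no library held more than 6 counts, and the 3 libraries of HIF-2α R27E held 0, which allows up to 3 counts in each. The locus overlaps 13 other annotated genes.

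The 4 lines of batch 2 form a design of 2 structured parts by 2 IDRs, in which each part can be compared averaged over the other. The labels name no second, independently made line for any construct in either batch. The SE and p-values thus cover spread between replicates and not between such lines, and line and construct cannot be told apart. With the HIF-2α IDR in place of the HIF-1α IDR, averaged over both structured parts, 3 genes were higher (*NDRG1*, *EDN1* and *ADM*), against 1.9% of all genes tested called higher, with a median log2 change of 0.47 over the 10 genes against 0.02 over all genes tested. The IDR difference was 6.46-fold for *NDRG1* (log2 change 2.69, SE 0.053, edgeR adjusted p = 2.2e-36), 3.07-fold for *EDN1* (log2 change 1.62, SE 0.10, edgeR adjusted p = 2.13e-17) and 2.79-fold for *ADM* (log2 change 1.48, SE 0.041, edgeR adjusted p = 5.17e-31). All 6 libraries with the HIF-2α IDR were above all 6 with the HIF-1α IDR for each of the 3. The same held for *BHLHE40* at a smaller size (log2 change 0.58, SE 0.043), and the opposite for *INSIG2*, lower with the HIF-2α IDR in all 6 libraries (log2 change -0.70, SE 0.049), neither reaching 2-fold. *EFNA3* (log2 change -0.80, SE 0.19) and *ANKRD37* (log2 change 0.67, SE 0.15) had overlapping libraries. For *STC1* the log2 difference was -0.13 (SE 0.059) and for *ERO1A* 0.01 (SE 0.043).

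With the structured part of HIF-2α in place of that of HIF-1α, averaged over both IDRs, only *ANKRD37* was called, lower in all 6 libraries by a log2 change of -1.42 (SE 0.15, edgeR adjusted p = 5.96e-10), against 0.707% of all genes tested called lower, and the median was -0.17 over the 10 genes against -0.01 over all genes tested. *ERO1A* was also lower in all 6 libraries (log2 change -0.66, SE 0.043, edgeR adjusted p = 3.61e-16), at 1.58-fold. *EDN1* lay in the other direction (log2 change 0.61, SE 0.10), and *EFNA3* (log2 change -0.57, SE 0.19, edgeR adjusted p = 0.0334) and *ADM* (log2 change -0.23, SE 0.040, edgeR adjusted p = 2.45e-05) were lower by less than 2-fold, all 3 with overlapping libraries. For *BHLHE40*, *STC1*, *INSIG2* and *NDRG1* the log2 differences were between -0.11 and 0.16. Means of *UFSP2*, which overlaps *ANKRD37*, were likewise lower in the lines with the structured part of HIF-2α, and its part in the *ANKRD37* call was not tested.

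**Figure D2:**
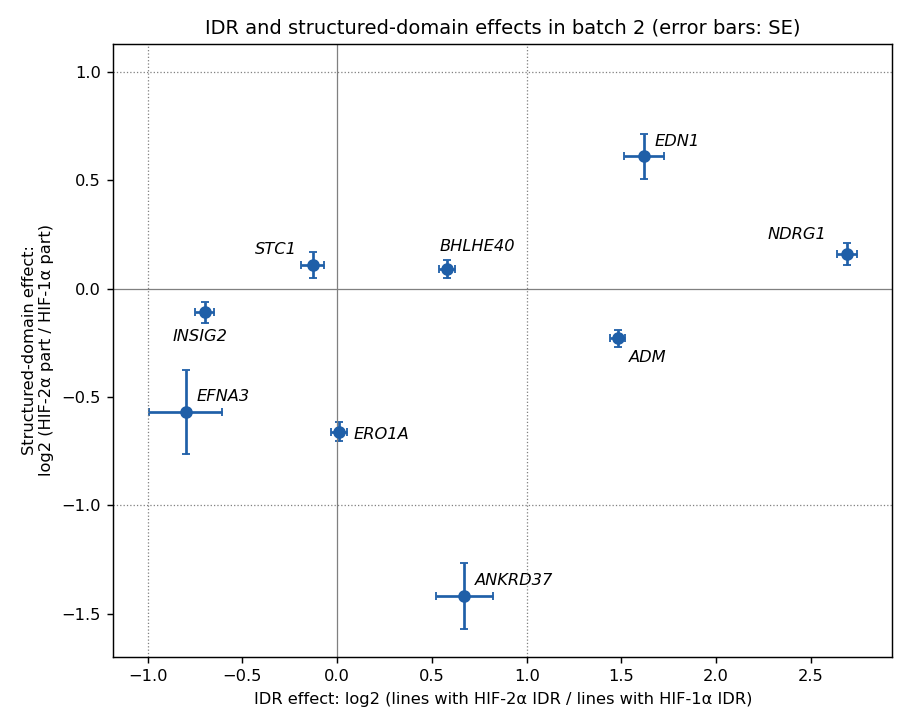
Log2 effect of the HIF-2α IDR against the HIF-1α IDR (horizontal axis) and of the HIF-2α structured part against that of HIF-1α (vertical axis) for 9 genes in batch 2, with SE bars and dotted lines at a 2-fold change. *RORA* is left out for its low counts. *NDRG1*, *EDN1* and *ADM* lie to the right of the 2-fold line and *ANKRD37* below it.

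Whether the IDR effect depended on the structured part was tested as an interaction, the IDR effect on the HIF-2α structured part minus that on the HIF-1α structured part. No gene of the 10 was called by edgeR, against 1.18% of all genes called either way, although 6 had an unadjusted p under 0.05, and DESeq2 called none either. The median was 0.16 over the 10 genes against 0.01 over all genes tested. Without the fold minimum *STC1* (log2 change 0.83, SE 0.12, edgeR adjusted p = 1.49e-06) and *INSIG2* (log2 change 0.48, SE 0.098, edgeR adjusted p = 0.000619) passed. For *STC1* the means were 56.1 ± 5.12 CPM in HIF-1α, 38.2 ± 6.53 in HIF-1α/2α, 45.2 ± 2.22 in HIF-2α/1α and 55.0 ± 6.26 in HIF-2α, so that each native protein stood above the chimera with the same structured part.

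Batch 1 held HIF-1α and HIF-2α lines beside lines with the DNA-binding and dimerization mutants. HIF-1α raised 7 of the 10 genes over WT (*ADM*, *STC1*, *NDRG1*, *ANKRD37*, *EFNA3*, *INSIG2* and *ERO1A*), against 3.27% of all genes tested called higher, with a median of 1.21 over the 10 genes against -0.03 over all genes tested. HIF-2α raised 5 (*ADM*, *STC1*, *EDN1*, *NDRG1* and *ANKRD37*), against 3.78%, with a median of 1.33 over the 10 genes against -0.09 over all genes tested. As in batch 2, all comparisons with WT share the WT libraries. In HIF-2α, 2 of the 3 HIF subunit genes were again called higher than in WT, against 3.78% of all genes tested. Against HIF-2α R27E 1 of the 3 was called higher, and against HIF-2αDM also 1, with 2.09% and 2.48% of all genes. In this batch *HIF1A* was 3.60 ± 0.201 CPM in WT, 45.2 ± 3.46 in HIF-1α, 37.4 ± 3.75 in HIF-1α R30E and 33.5 ± 4.42 in HIF-1αDM, and *EPAS1* was 216 ± 30.1 in WT, 666 ± 93.8 in HIF-2α, 844 ± 153 in HIF-2α R27E and 725 ± 78.8 in HIF-2αDM.

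**Figure D3:**
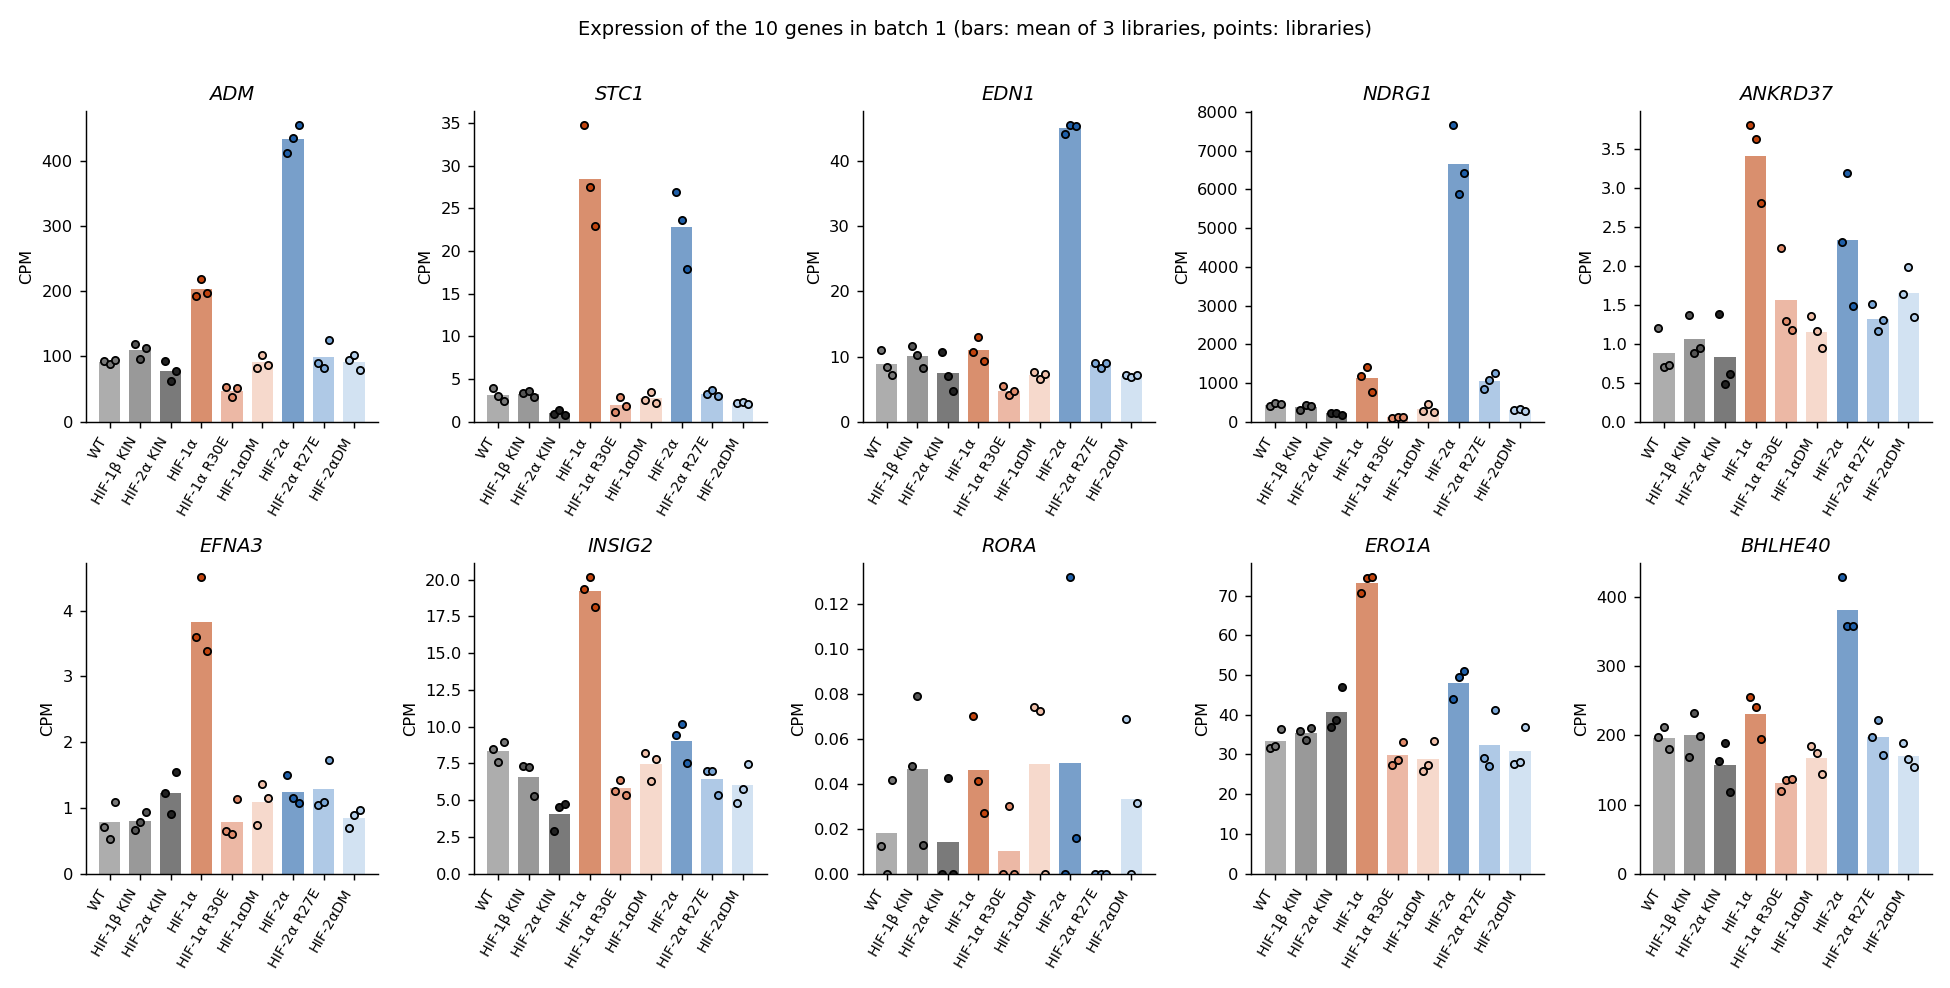
Level of each of the 10 genes in batch 1 in CPM (linear axis from 0, one panel per gene), with bars at the mean of 3 libraries and a point for each library. For *ADM*, *STC1*, *EDN1*, *NDRG1*, *INSIG2* and *ERO1A* the mutant lines lie near WT or below it, apart from HIF-2α R27E for *NDRG1*.

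Among the secreted factors, *ADM* was at 93.7, 88.5 and 93.8 CPM in WT, 193, 218 and 197 in HIF-1α and 412, 434 and 454 in HIF-2α. In the mutants it was 52.6, 38.4 and 52.3 in HIF-1α R30E, 82.1, 103 and 87.7 in HIF-1αDM, 90.0, 82.5 and 126 in HIF-2α R27E and 94.1, 102 and 79.0 in HIF-2αDM. HIF-2α and HIF-1α were apart from each other and from the rest, and HIF-1α R30E lay below WT without overlap (log2 change -0.95, SE 0.17, edgeR adjusted p = 0.000603), under the fold minimum, although it was called at a log2 change of -1.02 without R30E replicate 1 or 3. The change over WT was 2.21-fold in HIF-1α (log2 change 1.14, SE 0.17, edgeR adjusted p = 4.31e-05) and 4.71-fold in HIF-2α (log2 change 2.23, SE 0.18, edgeR adjusted p = 7.49e-10).

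*STC1* was at 3.92, 3.05 and 2.44 CPM in WT, 34.7, 27.5 and 23.0 in HIF-1α and 26.9, 23.7 and 17.9 in HIF-2α. The 4 mutant lines ranged from 1.17 to 3.67 CPM. HIF-1α and HIF-2α overlapped each other and no other group. The change was 9.05-fold in HIF-1α (log2 change 3.18, SE 0.28) and 7.28-fold in HIF-2α (log2 change 2.86, SE 0.28, edgeR adjusted p = 1.93e-08).

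*EDN1* was at 11.0, 8.41 and 7.22 CPM in WT, 10.7, 13.0 and 9.26 in HIF-1α and 44.1, 45.4 and 45.4 in HIF-2α. Only HIF-2α stood apart above the others, 5.08-fold over WT (log2 change 2.34, SE 0.22, edgeR adjusted p = 1e-08), and in HIF-1α the log2 difference was 0.31 (SE 0.21). HIF-1α R30E, at 5.47, 4.16 and 4.75 CPM, was below WT by less than the fold minimum (log2 change -0.89, SE 0.21) and was called without WT replicate 3, at -1.02. *EFNA3* showed the reverse, with 0.713, 0.533 and 1.09 CPM in WT, 3.60, 4.51 and 3.39 in HIF-1α and 1.5, 1.14 and 1.08 in HIF-2α. HIF-1α stood alone at the top, 4.89-fold over WT (log2 change 2.29, SE 0.34, edgeR adjusted p = 2.74e-05).

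*NDRG1* was at 394, 474 and 447 CPM in WT, 1189, 1415 and 776 in HIF-1α and 7646, 5882 and 6420 in HIF-2α. In the mutants it was 98.7, 126 and 124 in HIF-1α R30E, 283, 460 and 258 in HIF-1αDM, 838, 1065 and 1260 in HIF-2α R27E and 305, 322 and 276 in HIF-2αDM. HIF-2α stood alone at the top, HIF-1α overlapped HIF-2α R27E, and HIF-1α R30E was lowest. HIF-2α was 15.2-fold over WT (log2 change 3.92, SE 0.26, edgeR adjusted p = 1.63e-11) and HIF-1α 2.57-fold (log2 change 1.36, SE 0.23).

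*ANKRD37* was at 1.21, 0.706 and 0.733 CPM in WT, 3.80, 3.62 and 2.81 in HIF-1α and 2.31, 3.19 and 1.49 in HIF-2α. HIF-1α and HIF-2α overlapped each other, and HIF-2α also overlapped mutant lines. The change was 3.86-fold in HIF-1α (log2 change 1.95, SE 0.36, edgeR adjusted p = 0.000516) and 2.63-fold in HIF-2α (log2 change 1.40, SE 0.36), the latter called in 2 of 6 fits that left out 1 library, the call being lost without HIF-2α replicate 1 (1.40) or 2 (1.10) or WT replicate 2 (1.26) or 3 (1.28), and also with only HIF-2α and WT fitted (1.41, edgeR adjusted p = 0.0121).

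*INSIG2* was at 8.45, 7.59 and 8.94 CPM in WT, 19.3, 20.2 and 18.2 in HIF-1α and 9.43, 10.2 and 7.50 in HIF-2α, and *ERO1A* at 31.7, 32.1 and 36.5, 70.5, 74.5 and 74.6 and 43.8, 49.5 and 50.9 in the same order. HIF-1α stood alone at the top for both genes. Both rose in HIF-1α, *INSIG2* 2.31-fold (log2 change 1.21, SE 0.20, edgeR adjusted p = 0.000141) and *ERO1A* 2.19-fold (log2 change 1.13, SE 0.16, edgeR adjusted p = 1.72e-05). *BHLHE40* was at 198, 212 and 181 CPM in WT, 255, 241 and 195 in HIF-1α and 429, 359 and 359 in HIF-2α. HIF-2α stood alone at the top, at 1.94-fold over WT and under the fold minimum (log2 change 0.96, SE 0.17, edgeR adjusted p = 0.000263), and called with DESeq2 or RLE scaling (1.02 in both) and at 1.01 without HIF-2α replicate 3 or WT replicate 2.

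Set against its DNA-binding mutant R30E, HIF-1α had 7 of the 10 genes higher (*ADM*, *STC1*, *EDN1*, *NDRG1*, *EFNA3*, *INSIG2* and *ERO1A*), against 1.42% of all genes tested, with a median of 1.86 over the 10 genes against 0.02 over all genes tested. Against HIF-1αDM there were 6 (*ADM*, *STC1*, *NDRG1*, *EFNA3*, *INSIG2* and *ERO1A*), against 1.21%, with a median of 1.36 over the 10 genes against 0.00 over all genes tested. The differences were 3.84 (SE 0.29) and 3.37 (SE 0.28) on the log2 scale for *STC1* against R30E and HIF-1αDM, and 3.27 (SE 0.25) and 1.76 (SE 0.23) for *NDRG1*. *EFNA3* against HIF-1αDM was called in 5 of 6 fits with 1 library left out, and not without HIF-1αDM replicate 1, where its log2 change was 1.61. *ANKRD37* did not pass against either mutant (log2 change 1.13, SE 0.35, edgeR adjusted p = 0.0788, and log2 change 1.56, SE 0.36, edgeR adjusted p = 0.0104). Against HIF-1αDM it was called with DESeq2 (1.6), RLE scaling (1.59), no filter on low counts (1.57) or only the groups compared (1.56), and at an adjusted p of at most 0.05.

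HIF-2α had 4 of the 10 genes higher than R27E (*ADM*, *STC1*, *EDN1* and *NDRG1*), against 2.09% of all genes tested, with a median of 1.54 over the 10 genes against -0.09 over all genes tested. It had 5 higher than HIF-2αDM, the same 4 and *BHLHE40*, against 2.48%, with a median of 0.91 over the 10 genes against -0.05 over all genes tested. *NDRG1* differed by 2.66 (SE 0.24) from R27E and by 4.47 (SE 0.26) from HIF-2αDM on the log2 scale, and *BHLHE40* by 1.17 (SE 0.17) from HIF-2αDM. *BHLHE40* differed by 0.95 (SE 0.17) from R27E and was called there with DESeq2 or RLE scaling (1.03 in both) and at 1.08 without R27E replicate 2.

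Against WT, few of the genes were called in the mutant lines. In HIF-1α R30E, however, 7 of the 10 had an unadjusted edgeR p under 0.05, and 3, all lower, passed without the fold minimum. In HIF-2α R27E 2 had an unadjusted edgeR p under 0.05. HIF-1α R30E had 1 lower, *NDRG1* (log2 change -1.91, SE 0.24, edgeR adjusted p = 3.51e-06), against 0.572% of all genes tested called lower, with a median of -0.63 over the 10 genes against -0.04 over all genes tested. *EPAS1* was 154 ± 33.5 CPM in this line and 216 ± 30.1 in WT, and its part in the *NDRG1* value was not tested. HIF-2α R27E had 1 higher, *NDRG1* again (log2 change 1.27, SE 0.23, edgeR adjusted p = 0.00285), against 0.449%, with a median of 0.04 over the 10 genes against 0.00 over all genes tested. This call held in 1 of 6 fits that left out 1 library, being lost without R27E replicate 2 (log2 change 1.24) or 3 (1.12) or WT replicate 1 (1.18), 2 (1.33) or 3 (1.28), and it was also lost when only R27E and WT were fitted. In HIF-1αDM edgeR called 0 of the 10, with 0 at an unadjusted p under 0.05 and 0 by DESeq2, against 0.457% of all genes called either way and a median of -0.18 over the 10 genes against 0.00 over all genes tested. In HIF-2αDM edgeR also called 0, with 3 at an unadjusted p under 0.05 and 0 by DESeq2, against 0.474% and a median of -0.17 over the 10 genes against -0.01 over all genes tested.

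The 2 knock-in clones carry tagged endogenous proteins and no transgene. In the HIF-1β KIN clone edgeR called 0 of the 10, with 0 at an unadjusted p under 0.05 and 0 by DESeq2, against 1.38% of all genes called either way and a median of 0.08 over the 10 genes against -0.03 over all genes tested. In the HIF-2α KIN clone 3 genes were lower (*STC1*, *NDRG1* and *INSIG2*), against 1.79% of all genes called lower, with a median of -0.29 over the 10 genes against -0.04 over all genes tested. *STC1* was at 0.896, 1.34 and 0.830 CPM in the clone, with no overlap with WT (log2 change -1.63, SE 0.28, edgeR adjusted p = 0.000187), and the call held in 6 of 6 fits that left out 1 library. *NDRG1* was at 229, 231 and 180 CPM (log2 change -1.04, SE 0.23, edgeR adjusted p = 0.00301), and its call held in 2 of 6 such fits, being lost without KIN replicate 1 (log2 change -1.09) or 3 (-0.93) or WT replicate 2 (-0.98) or 3 (-1.03). *INSIG2* was at 2.92, 4.53 and 4.76 CPM (log2 change -1.03, SE 0.20, edgeR adjusted p = 0.00085), with the call kept in 4 of 6 fits and a log2 change of -0.84 without KIN replicate 1 and -0.98 without WT replicate 3, and it was lost with DESeq2 or RLE scaling (-0.99 in both) and with only the clone and WT fitted (-1.01). *EPAS1* itself was 92.0 ± 7.41 CPM in the clone against 216 ± 30.1 in WT, and its part in these values was not tested. The clone is a single isolate, so that the edit and the clone cannot be told apart.

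The HIF-1α and HIF-2α lines were profiled in both batches, with different RNA extraction and library kits. Differences between batches were called on the adjusted p alone, with no fold minimum. In a joint fit the HIF-1α response over WT did not pass as different between batches for any of the 10 genes (edgeR called 0, with 2 at an unadjusted p under 0.05 and 0 by DESeq2), against 0.00374% of all genes called either way, and the median difference was -0.28 over the 10 genes against -0.10 over all genes tested. For HIF-2α edgeR called 0, with 1 at an unadjusted p under 0.05 and 0 by DESeq2, against 0%, with a median of -0.11 over the 10 genes against -0.05 over all genes tested. The differences with the smallest SE were those of *ADM*, -0.28 (SE 0.14) for HIF-1α and -0.11 (SE 0.14) for HIF-2α, and of *ERO1A*, -0.41 (SE 0.14) and -0.43 (SE 0.14). The joint fit scaled its 18 libraries together across batches, so its differences can depart from those between the separate fits. In the separate fits of batches 1 and 2, the log2 change of *ADM* was 1.14 and 1.02 in HIF-1α. In HIF-2α it was 2.23 and 2.27. The calls of *INSIG2* and *ERO1A* in HIF-1α were made in batch 1 only, where the changes were 2.31-fold and 2.19-fold against 1.94-fold and 1.84-fold in batch 2.

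**Figure D4:**
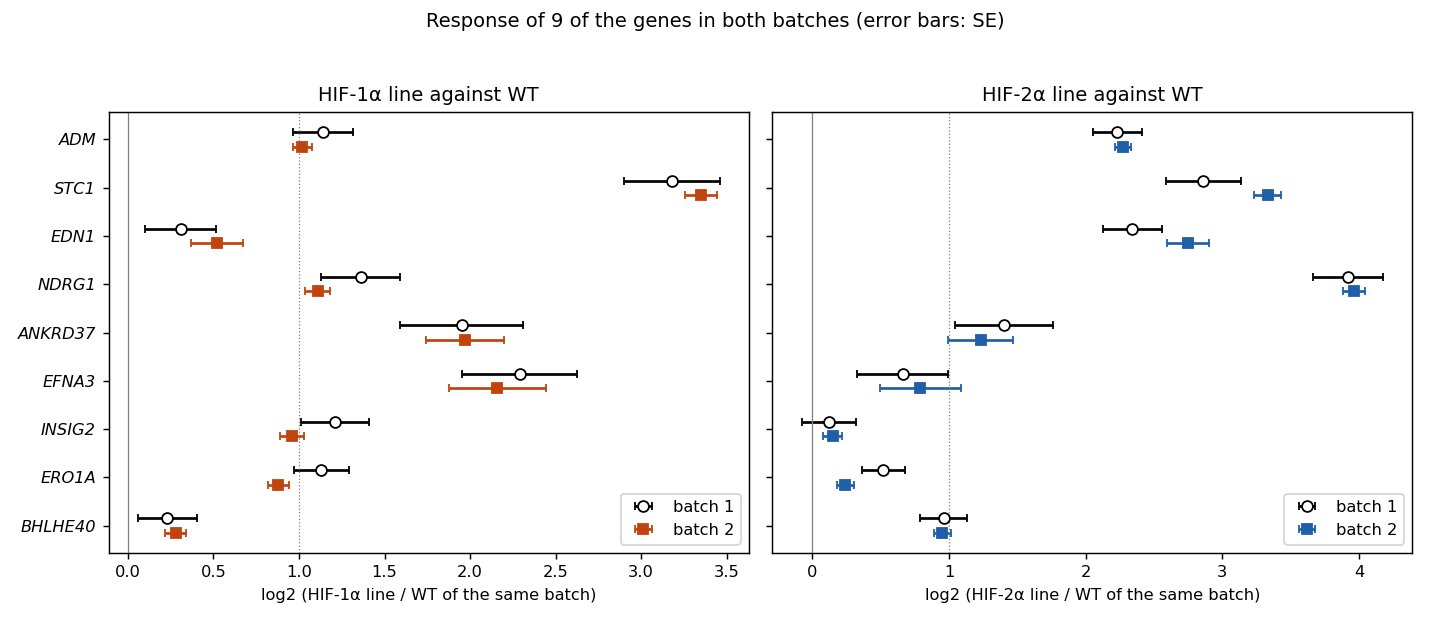
Log2 change over WT of the same batch, with SE bars, for 9 genes in the HIF-1α line (left) and the HIF-2α line (right), batch 1 as open circles and batch 2 as squares, with a dotted line at 2-fold. The order of the genes by size is led in both batches by *STC1* in HIF-1α and by *NDRG1* in HIF-2α.

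Levels between genes can be set side by side per kilobase of annotated exon. In WT cells of batch 2, *BHLHE40* was at 50.4 ± 3.32 CPM per kb, *NDRG1* at 24.7 ± 1.12 and *ADM* at 19.8 ± 1.23. *ERO1A* (6.75 ± 0.438), *INSIG2* (6.43 ± 0.458) and *EDN1* (4.03 ± 0.466) followed, then *STC1* (1.33 ± 0.0690). *ANKRD37* (0.203 ± 0.0851) and *EFNA3* (0.172 ± 0.0481) were the lowest but for *RORA*. The length joined all annotated exons of a gene, 12002 bases for *NDRG1*, 3516 for *BHLHE40* and 2325 for *ADM*. A transcript need not hold all of them, so the order depends on the length used. In CPM, *NDRG1* (297 ± 13.4) stood above *BHLHE40* (177 ± 11.7) in the same WT cells. Exon lengths were taken in full, while reads on overlapping genes were dropped. Genes with such overlaps, *ANKRD37* and *EFNA3* among them, may therefore stand too low in this order. In HIF-2α the order per kb changed, with *NDRG1* at 385 ± 23.9 CPM per kb above *BHLHE40* at 97.1 ± 3.36 and *ADM* at 95.5 ± 3.52.

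The genes whose pattern over the 14 group means was closest to each of the 10, each batch centred on its mean, were sought among 12453 genes, the 10 themselves left out, whose normalized count averaged 50 or more in both batches. The points share libraries within a group, so the correlations are descriptions. *ADM* was closest to *VEGFA* (Pearson r = 0.981) and *EGR2* (0.973), *STC1* to *APLN* (0.991) and *TCAF2* (0.982), and *EDN1* to *CAMKK1* (0.988) and *LOXL2* (0.975). *NDRG1* was closest to *C8orf58* (0.99) and *EGLN3* (0.984), and *BHLHE40* to *KMO* (0.974) and *C8orf58* (0.973). *ERO1A* was closest to *PFKFB4* (0.954) and *GBE1* (0.947), *INSIG2* to *AK4* (0.929) and *TBC1D9B* (0.921), and *EFNA3* to *PPP1R16A* (0.954) and *DARS-AS1* (0.953). *ANKRD37* was closest to its overlapping neighbour *UFSP2* (0.96) and *AC009549.1* (0.953). Among the 10 themselves, *NDRG1* and *BHLHE40* were closest to each other (0.976), and *EFNA3* and *ERO1A* likewise (0.831). *RORA* was too low for this comparison.

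Genes that work with the 10 were listed by function and read in the same 4 comparisons with WT in batch 2. Of 15 genes of the adrenomedullin, stanniocalcin and endothelin systems, 11 were tested, of which 1 rose and 2 fell in HIF-1α, 1 and 2 in HIF-2α/1α, 4 and 2 in HIF-2α, and 3 and 1 in HIF-1α/2α. Of all genes tested, 3.9% were called higher and 0.484% lower in HIF-1α, 2.98% and 0.508% in HIF-2α/1α, 5.45% and 2.13% in HIF-2α, and 5.1% and 2.68% in HIF-1α/2α. *ACKR3*, a scavenging receptor that also binds adrenomedullin, rose in all 4 lines, by 1.21 and 1.37 on the log2 scale in HIF-1α and HIF-2α/1α and by 5.39 and 4.78 in HIF-2α and HIF-1α/2α. *MME*, which encodes a peptidase that cleaves such peptides, rose by 1.99 and 2.82 in HIF-2α and HIF-1α/2α, and *PAM*, which encodes the enzyme that amidates adrenomedullin, by 1.04 in HIF-2α. *ADM2*, the paralog of *ADM*, was lower in all 4 lines, with log2 changes of -1.15, -1.32, -1.44 and -1.93 in HIF-1α, its chimera HIF-2α/1α, HIF-2α and its chimera HIF-1α/2α. *EDN2*, the paralog of *EDN1*, was lower in the first 3 of these (-1.33, -1.10 and -1.38). *RAMP2*, a partner of the adrenomedullin receptor, had 0 counts in every WT library and 5 to 8 and 5 to 16 in those of HIF-2α and HIF-1α/2α, too few for a fold.

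Paralogs of the 10 genes were read in the same order of lines. *INSIG1*, the paralog of *INSIG2*, was lower in all 4 lines (-1.52, -1.52, -1.52 and -1.91), and so was *EFNA1* (-1.12, -1.25, -1.81 and -1.28). *EFNA4*, the gene next to *EFNA3*, had a log2 change of -1.01 in HIF-1α/2α, and in HIF-2α *BHLHE41* was lower (-1.14) while *NDRG2* (1.12) was higher. Of 8 genes of sterol sensing, *SREBF1* was called lower in HIF-2α and HIF-1α/2α (-2.41 and -2.20). Of 9 ephrin-A receptors, 7 were tested and *EPHA4* rose in 3 lines (1.84, 1.97 and 1.14). Of 11 clock genes, *DBP*, an output factor, rose in HIF-1α and HIF-2α/1α (1.76 and 1.60), *NFIL3*, a repressor, in HIF-2α and HIF-1α/2α (1.13 and 1.08), and *NR1D1*, also a repressor, in HIF-2α (1.04). In the same order of lines, the median log2 changes, against 0.03, 0.03, 0.07 and 0.08 over all genes tested, were 0.19, 0.19, 0.60 and 0.44 for the hormone systems, 0.03, 0.19, 0.37 and 0.26 for 7 genes of oxidative folding, the process that ERO1A drives, -0.25, -0.37, -0.57 and -0.46 for sterol sensing, 0.30, 0.42, 0.38 and 0.28 for the ephrin-A receptors, and 0.02, 0.01, 0.25 and 0.07 for the clock genes.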

How the data were processed

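Poly-A RNA was sequenced from 42 libraries of 786-O cells in 14 groups of 3 replicates, called biological replicates by the study, 27 libraries in batch 1 and 15 in batch 2. The deposited files hold unnormalized read counts per gene, which the authors made by aligning to hg38 with STAR, keeping uniquely mapped reads, and counting with HTSeq in union mode, without strand, on GENCODE genes. The submitters' processing notes name STAR 2.7, SAMtools 1.9 and HTSeq 0.11.1. Reads that fall on 2 overlapping genes are dropped in this mode, which can lower either gene.

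Counts were scaled by TMM and tested with edgeR 4.0.16 (quasi-likelihood test, R 4.3.3) in 1 fit per batch with group as the term, on genes whose normalized count averaged 0.5 or more, which left 23410 genes in batch 1, 28724 in batch 2 and 26763 in the joint fit of 18 WT, HIF-1α and HIF-2α libraries. Tests were two-sided, p-values were adjusted by Benjamini-Hochberg over all genes tested, and a call needed an adjusted p of at most 0.01 and a 2-fold change. The differences between batches were called on the adjusted p alone. CPM are edgeR values with TMM. Alternatives were DESeq2 1.42.0, RLE scaling, no filter, an adjusted p of at most 0.05, no fold minimum, only the groups compared, a replicate block and leaving out each library. Tested on simulated data, the fit recovered fold sizes without bias. Fewer of the smaller changes passed in batch 1 than in batch 2, and in batch 2 the adjusted p alone let through more unchanged genes than its nominal share, which the fold minimum brought under it. Pass limits for this test were reset after its first results were seen.

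Replicate numbers were checked for pairing by correlating deviations from the group means. In batch 1 same-numbered libraries correlated at 0.242 on average (-0.1 to 0.508), every pair being over 0.1 in 6 of 12 comparisons (both KIN clones, HIF-1α, HIF-1αDM and R27E against WT, and HIF-2α against R27E). In batch 2 the mean was 0.002. Named genes are the 10, the HIF subunit genes, listed genes called in batch 2 against WT and the 2 genes closest in pattern to each of the 10. The members and lists were chosen with earlier results of these data known. The HIF-2αDM libraries were grouped by their titles, since the genotype label of all 3 names HIF-1α. Promoters are from RefSeq and gene positions and exon lengths from a later GENCODE release. 1 gene of the paralog list, and with it the counts and median of that list, is not reported here.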

Additional observations from a re-analysis of the deposited data

Results flagged for a closer look

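Of the 10 genes, *STC1* and *INSIG2* had an IDR effect that differed between the 2 structured parts in batch 2, by the interaction test at an adjusted p of at most 0.01 without a fold minimum. For *STC1* the IDR effect on the HIF-2α structured part minus that on the HIF-1α structured part was 0.83 on the log2 scale (SE 0.12, edgeR adjusted p = 1.49e-06), with 56.1 ± 5.12 CPM in HIF-1α and 38.2 ± 6.53 in HIF-1α/2α on one side and 45.2 ± 2.22 in HIF-2α/1α and 55.0 ± 6.26 in HIF-2α on the other. For *INSIG2* it was 0.48 (SE 0.098, edgeR adjusted p = 0.000619), with 49.4 ± 4.46 CPM in HIF-1α, 25.7 ± 1.29 in HIF-1α/2α, 38.8 ± 1.80 in HIF-2α/1α and 28.1 ± 0.495 in HIF-2α. Equal mRNA levels of the transgenes were not shown for the 4 lines, and the part of any difference was not tested.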

How the results depend on the processing

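Counts of called genes among the 10 kept within 1.5 times of their value under DESeq2, RLE scaling, no filter, an adjusted p of at most 0.05 and the replicate block. Without a fold minimum they were 9 in HIF-1α against WT in batch 2, 9 in HIF-2α/1α, 7 for the IDR effect (5 higher and 2 lower), 4 for the structured part, 2 for the interaction and 3 in HIF-1α R30E, and with only the groups compared 0 in HIF-2α R27E. With 1 library left out they ranged from 1 to 4 in HIF-2α/1α, 1 to 3 in HIF-2α KIN, 1 to 2 in HIF-1α R30E and 0 to 1 in HIF-2α R27E. Of 2691 single-gene alternatives, 2534 kept direction and side of the threshold, 27 lost a call, 51 gained one and 79 changed sign, none of them of a called change. Depth limited *RORA*, at no more than 6 counts in any batch 1 library.

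With the replicate block, *ANKRD37* gained a call in HIF-1α against R30E (log2 change 1.16) and against HIF-1αDM (1.57), where not every same-numbered pair correlated over 0.1, and no other call changed.

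Sign changes, all of small uncalled changes, came with 1 library left out, with log2 ranges of *INSIG2* -0.03 to 0.08 (HIF-1α/2α against WT), *ERO1A* -0.01 to 0.04 (the IDR effect), *ERO1A* -0.08 to 0.01, *BHLHE40* -0.12 to 0.04 (the interaction), *STC1* -0.08 to 0.28, *EFNA3* -0.18 to 0.35, *BHLHE40* -0.09 to 0.13 (HIF-1β KIN against WT), *ANKRD37* -0.66 to 0.20 (HIF-2α KIN against WT), *EFNA3* -0.33 to 0.35 (HIF-1α R30E against WT), *ADM* -0.12 to 0.05 (HIF-1αDM against WT), *ADM* -0.09 to 0.21, *STC1* -0.08 to 0.26, *EDN1* -0.15 to 0.15, *ERO1A* -0.25 to 0.05, *BHLHE40* -0.11 to 0.10 (HIF-2α R27E against WT), *ADM* -0.09 to 0.09, *EFNA3* -0.08 to 0.45 (HIF-2αDM against WT), *EFNA3* -0.21 to 0.22 (HIF-2α against HIF-2α R27E), *STC1* -0.13 to 0.19, *EDN1* -0.07 to 0.21, *ANKRD37* -0.32 to 0.25, *BHLHE40* -0.22 to 0.02 (HIF-1α against WT, batch 2 minus batch 1), *NDRG1* -0.20 to 0.03, *ANKRD37* -0.55 to 0.08, *EFNA3* -0.35 to 0.23 (HIF-2α against WT, batch 2 minus batch 1). Other settings gave *BHLHE40* (HIF-2α R27E against WT) 0.00 with DESeq2, RLE, the replicate block and -0.01 with no filter, only the groups compared, *ADM* (HIF-2αDM against WT) 0.01 with DESeq2, RLE and 0.00 with the replicate block, *EFNA3* (HIF-2α against HIF-2α R27E) 0.02 with DESeq2, RLE, *BHLHE40* (HIF-1α against WT, batch 2 minus batch 1) 0.01 with no filter, *EFNA3* (HIF-2α against WT, batch 2 minus batch 1) 0.09 with DESeq2 and 0.05 with no filter and 0.08 with RLE and 0.02 with the replicate block.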
